A study of Mus musculus with 10 samples.

Results

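Integrins are the receptors by which endothelial cells hold on to their basement membrane. Each integrin pairs an alpha subunit, which mostly sets the ligand, with a beta subunit, whose cytoplasmic tail binds talin and kindlin and so ties the receptor to actin. Beta1 is the common partner of many alpha subunits, and beta3 and beta5 pair with alphav into receptors for vitronectin and other proteins with an RGD sequence, which are known for their place in the growth of new vessels. Described here are the transcripts of 10 integrin subunits of endothelium, chosen by gene symbol, among 23238 symbols in the count tables. The 7 alpha members are Itga1 and Itga2 (collagen receptors), Itga3 and Itga6 (laminin receptors), Itga5 (fibronectin receptor), Itgav (RGD receptor) and Itga9 (receptor for tenascin-C and other ligands). The 3 beta members are Itgb1, Itgb3 and Itgb5. All 10 had enough counts to enter the test, which covered 13040 genes.

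RNA was measured in endothelial cells purified from gliomas that grew in the brains of C57BL/6 mice after intracranial injection of GL26l cells, a mouse glioma line. Sox7 and Sox17 are transcription factors of the SoxF family, which act in vascular development, and the comparison asks how the endothelium of such a tumour differs when either is missing. The groups, with their numbers of libraries, were Sox17-deficient (3), Sox17 control (3), Sox7-deficient (2) and Sox7 control (2). Deficient mice carried Sox17 fl/fl or Sox7 fl/fl alleles and Cdh5(BAC)-CreERT2, a tamoxifen-inducible recombinase driven by the endothelial VE-cadherin promoter, and received 20 mg/kg tamoxifen intraperitoneally. The labels do not give the alleles or the treatment of the controls, nor the ages, so deletion cannot be told apart from tamoxifen or recombinase activity. A deficient and a control library of the same number form a set, and the 2 arms have separate controls.

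The libraries hold 3′ tags (Lexogen QuantSeq, 500 ng total RNA), 1 tag per transcript, so levels in CPM (counts scaled to a common library total) can be set beside each other between genes without scaling for length. Total counts were 2082305 to 35068802 per library, and 3 counts, taken as the floor of detection, equalled 0.0846 to 1.36 CPM. The floor covers counting error only. Sox17 had 14, 38 and 54 counts in the Sox17-deficient libraries, against 384, 1140 and 1508 in Sox17 controls. Sox7 had 4 and 5 counts in the Sox7-deficient libraries, against 193 and 64 in Sox7 controls. All 10 endothelial markers had counts in every library, with sums of 6157 to 12605 CPM. One library stood apart: the 10 macrophage and microglia markers summed to 12590 CPM in Sox7-deficient 1 and to 16.2 to 713 CPM in the other 9. Sox17 control 1 was the shallowest library. The 7 pericyte markers summed to 196 to 220 CPM in Sox17-deficient libraries, against 267 to 820 CPM in Sox17 controls, and their part in the member values was not tested.

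The promoters of Itgb5, Itgb1 and Itga5 are shown because Itgb5 had the largest fitted difference of any member with counts in all groups, Itgb1 is the abundant beta subunit it can be read against, and Itga5 holds a SOX core motif. Each is the 250 bases before the start in RefSeq on GRCm38.p6, 5′ to 3′ on the gene's strand, at chr16:33829415-33829664 (plus strand) for Itgb5, chr8:128685404-128685653 (plus strand) for Itgb1 and chr15:103366792-103367041 (minus strand) for Itga5. Capitals mark ACAAT or its reverse complement ATTGT, the letters of the SOX core motif searched on both strands.
Itgb5: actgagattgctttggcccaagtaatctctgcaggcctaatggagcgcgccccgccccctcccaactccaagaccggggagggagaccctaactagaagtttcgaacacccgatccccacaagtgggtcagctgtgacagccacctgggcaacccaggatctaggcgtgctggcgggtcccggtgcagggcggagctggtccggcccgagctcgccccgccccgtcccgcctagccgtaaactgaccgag
Itgb1: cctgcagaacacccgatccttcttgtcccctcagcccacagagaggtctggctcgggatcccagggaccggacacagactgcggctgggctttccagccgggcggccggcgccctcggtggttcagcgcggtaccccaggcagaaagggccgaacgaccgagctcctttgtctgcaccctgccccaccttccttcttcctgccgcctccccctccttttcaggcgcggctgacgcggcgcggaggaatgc
Itga5: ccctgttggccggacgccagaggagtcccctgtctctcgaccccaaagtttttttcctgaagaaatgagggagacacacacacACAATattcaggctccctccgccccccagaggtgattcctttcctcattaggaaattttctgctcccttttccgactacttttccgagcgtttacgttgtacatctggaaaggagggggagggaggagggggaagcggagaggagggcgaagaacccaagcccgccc
The Itga5 match begins 167 bases before the start, and these letters are in neither the Itgb5 nor the Itgb1 window. Of the 10 members, 8 matched an entry, with 9 promoters between them. Itgb3 and Itga6 had no entry, so their promoters were not searched. Of the 9 promoters, 2 (Itga5 and Itga9) held the motif, and over all 32851 promoters of the same length 27.7% did. The Itga9 window (chr9:118711442-118711691) lies inside the annotated gene. The bases before the annotated start of Itga9, at 118606690, were not searched. GC content was 65.2% for Itgb5, 68.0% for Itgb1 and 55.6% for Itga5, against a median of 52.4% over all promoters. CpG pairs numbered 18 for Itgb5, 21 for Itgb1 and 11 for Itga5, against a median of 6. A match in letters describes the sequence and is not a measured binding site.

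Glioma endothelium held far more transcript of Itga6 and Itgb1 than of any other member. Itga6 averaged 1593 ± 950 CPM and Itgb1 689 ± 207 CPM over the 10 libraries (SD), and each exceeded the member next below it in all 10. Their means lay at percentiles 99.7 and 98.8 of all genes tested. Itga6 made up 87.5 to 98.5% of the summed alpha members, and Itgb1 76.2 to 95.5% of the summed beta members. The products of Itga6 and Itgb1 form the laminin receptor alpha6beta1, and the ratio of Itga6 to Itgb1 tags ran between 1.30 and 7.15 over libraries with a median of 1.88.

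The middle of the order held Itgb3 (50.3 ± 26.6 CPM), Itga1 (47.4 ± 17.3 CPM), Itgb5 (29.5 ± 46.1 CPM) and Itga3 (28.6 ± 22.7 CPM). Itgb3 exceeded Itga1 in 5 of 10 libraries and Itgb5 exceeded Itga3 in 3 of 10, so these neighbours did not differ beyond their spread. Itgav (9.40 ± 6.60 CPM), Itga9 (7.26 ± 11.4 CPM), Itga5 (4.01 ± 6.13 CPM) and Itga2 (1.35 ± 1.54 CPM) came last, each exceeding the next in at most 7 of 10 libraries. Itgav was at or under the floor in 1 library, Itga9 in 2, Itga5 in 3 and Itga2 in 5. Fn1, the fibronectin gene and ligand of the Itga5 and Itgav receptors, had 1910 to 4436 CPM in the same libraries.

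**Figure D1:**
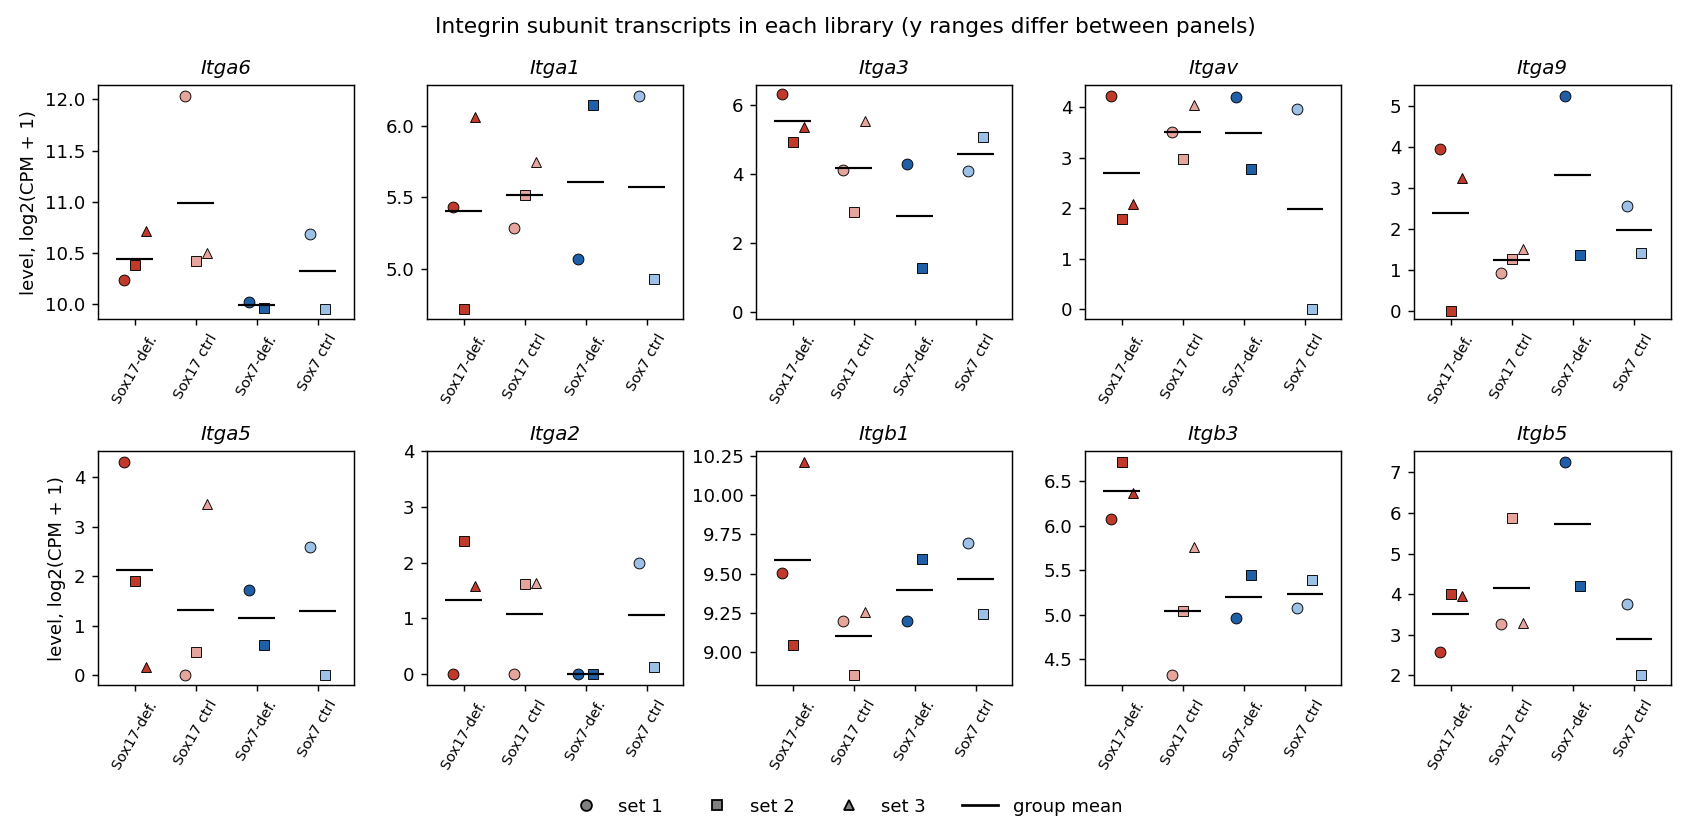
Level of each integrin subunit gene as log2(CPM + 1), 1 panel per gene with its own y range, for Sox17-deficient (3 libraries), Sox17 control (3), Sox7-deficient (2) and Sox7 control (2). Symbols give the set and bars the group mean. In the Itgb3 panel all 3 Sox17-deficient libraries sit above all 3 Sox17 controls, and in the Itgb5 panel Sox7-deficient 1 sits highest at 153 CPM.

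No integrin subunit passed an adjusted p of 0.05 in either comparison, where 0% of all genes tested did (edgeR). Sox17 itself did not pass in Sox17-deficient over control, with a log2 fold change of −5.24 (adjusted p 0.226 in edgeR). Nor did Sox7 in Sox7-deficient over control, with −4.52 (unadjusted p 0.000394 in edgeR). A member without a call is therefore not shown to be unchanged. DESeq2 called 29 genes for Sox17 and 3 for Sox7, none of them a member, and limma-voom called 0 for both. With same-numbered libraries as a replicate block, edgeR called 6 genes for Sox17 and 1 for Sox7, again no member. At an unadjusted p below 0.05 stood 1 of 10 members in the Sox17 comparison, where 459 genes (3.52%) did, and 1 of 10 in the Sox7 comparison, where 195 genes (1.5%) did. These were Itgb3 for Sox17 and Itgb5 for Sox7. The median log2 fold change of the 10 members was 0.55 in Sox17-deficient over control, against 0.05 for all genes tested. With limma-voom it was −0.22, against −0.08 for all genes, and it ran between 0.23 (without Sox17 control 1) and 0.80 (without Sox17 control 3). In Sox7-deficient over control the members' median was −0.05, against 0.04 for all genes, and it ran between −0.42 (without Sox7 control 2) and 0.46 (without Sox7 control 1). The median of all genes in these settings was 0.04 and 0.22, in that order. Itgb1 and Itgb3 were higher in the deficient library of all 3 Sox17 sets, a direction held by 13.1% of all genes, and no member was lower in all 3, as 11.5% of all genes were. Itgav and Itgb5 were higher in both Sox7 sets, as 22.3% of all genes were, and Itga2 was lower in both, as 22.5% were. No member went 1 way in all 5 sets (3.32% of all genes were higher and 3.34% lower in all 5). No member was higher in all sets of 1 arm and lower in all sets of the other (3.08% of all genes were lower in the Sox7 sets and higher in the Sox17 sets, and 2.19% the reverse). In these bulk samples fewer cells of a type and less RNA per cell cannot be told apart.

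Itgb3 was higher in every Sox17-deficient library than in any Sox17 control. It encodes the beta subunit of alphavbeta3, and in platelets it pairs with the product of Itga2b. Itgb3 (GRCm38 chromosome 11, 104608000 to 104670476, plus strand, protein-coding) had 66.7, 104 and 81.3 CPM in Sox17-deficient libraries 1 to 3, against 19.0, 31.8 and 53.3 CPM in Sox17 controls 1 to 3. The groups did not overlap, which held for 4.13% of all genes in that direction, and the deficient library was higher in each of the 3 sets. The means were 84.2 ± 19.1 CPM in Sox17-deficient and 34.7 ± 17.3 CPM in control libraries (SD, n = 3 each). The fold was 2.41, or 1.27 on the log2 scale (SE 0.49, 95% interval 0.24 to 2.30), with an unadjusted p of 0.0186 and an adjusted p of 1 in edgeR. Without Sox17 control 1, the lowest and shallowest library, the log2 value was 0.97 (unadjusted p 0.0604 in edgeR). It was 1.08 without Sox17-deficient 2 (unadjusted p 0.0732) and 1.19 without Sox17 control 2 (unadjusted p 0.0582).

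Itgb3 is also a gene of platelets. The sum of 6 platelet markers was 10.9, 26.3 and 14.8 CPM in Sox17-deficient libraries, against 0, 5.69 and 24.2 CPM in Sox17 controls. Itga2b gave 0.825, 24.3 and 14.6 CPM of this in Sox17-deficient libraries, against 0, 4.90 and 22.3 CPM in Sox17 controls, and in Sox17-deficient 1 most of the sum was Ppbp (9.90 CPM). The groups overlapped in these markers, while all 3 platelet markers tested had log2 fold changes above 0 (median 0.53), and their part in the Itgb3 value was not tested. Gp1ba and Gp9 were at 0 in all 6 libraries of the arm, and Gp5 was at 0 in every deficient one. Platelet sums in the Sox7 arm were 42.6 and 39.1 CPM in deficient and 19.7 and 49.8 CPM in control libraries.

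The Sox7 arm gave no such separation of Itgb3. It had 30.1 and 42.4 CPM in Sox7-deficient libraries, against 32.8 and 41.0 CPM in Sox7 controls, and the groups overlapped. The log2 fold change was −0.02 (SE 0.59, 95% interval −1.27 to 1.22), and this interval overlaps that of the Sox17 comparison. The difference between the arms, Sox7 minus Sox17, was −1.29 (SE 0.77), with an unadjusted p of 0.110 and an adjusted p of 1.00 in edgeR, so the arms were not shown to differ.

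**Figure D2:**
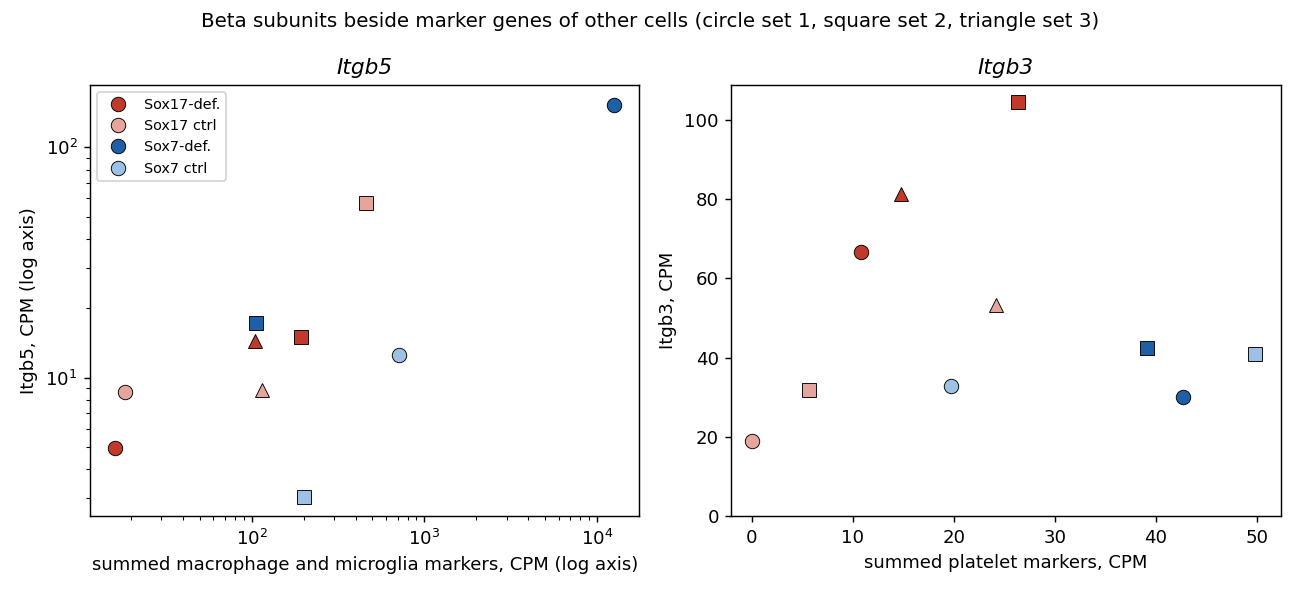
Left, Itgb5 against the summed macrophage and microglia markers, both in CPM on log axes. Right, Itgb3 against the summed platelet markers, both in CPM. Each point is a library, coloured by group. Sox7-deficient 1 lies alone at 12590 CPM of macrophage and microglia markers and 153 CPM of Itgb5, and the 3 Sox17-deficient libraries lead in Itgb3 with platelet sums between 10.9 and 26.3 CPM.

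Itgb5 showed the largest fitted difference of any member with counts in all groups, and it came mostly from 1 library. Itgb5 (chromosome 16, 33829665 to 33949338, plus strand, protein-coding) is the beta subunit of alphavbeta5, a vitronectin receptor. It had 153 and 17.2 CPM in Sox7-deficient libraries 1 and 2, against 12.6 and 3.04 CPM in Sox7 controls 1 and 2. The groups did not overlap, which held for 12.7% of all genes in that direction, and both sets had the deficient library higher. The log2 fold change was 3.45 (SE 1.21, 95% interval 0.90 to 6.01), with an unadjusted p of 0.0112 and an adjusted p of 1 in edgeR. Without Sox7-deficient 1 the log2 value was 1.11 (unadjusted p 0.443 in edgeR), and without Sox7 control 2 it was 2.76 (unadjusted p 0.0891).

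The macrophage and microglia markers were likewise highest in Sox7-deficient 1. They summed to 12590 and 106 CPM in Sox7-deficient libraries 1 and 2, against 713 and 202 CPM in Sox7 controls. All 10 had counts in Sox7-deficient 1, and in Sox7-deficient 2 all but Lyz2 and Ptprc did. In set 2 the sum was lower in the deficient library, in which Itgb5 was higher. Leukocyte subunits of the integrin family were also highest in Sox7-deficient 1, and 1 of them, Itgam, is itself among the 10 markers summed. Itgam (complement receptor alphaM) had 189 and 16.0 CPM in Sox7-deficient libraries, against 15.0 and 0 CPM in Sox7 controls. Itgb2, its beta partner, had 106 and 6.23 CPM in Sox7-deficient libraries, against 6.22 and 0.0921 CPM in Sox7 controls. Itgax, another leukocyte alpha subunit, had 271 and 17.5 CPM in Sox7-deficient libraries, against 17.1 and 48.4 CPM in Sox7 controls. Its sets went opposite ways. In the Sox17 arm the library highest in Itgb5, Sox17 control 2 with 57.3 CPM, also had the highest macrophage and microglia sum, 459 CPM. Its sum of astrocyte markers, 449 CPM, was the highest of the arm as well. Astrocyte sums in the Sox7 arm were 160 and 862 CPM in deficient libraries 1 and 2, against 93.2 and 708 CPM in controls 1 and 2. The part of these cells in the Itgb5 value was not tested.

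In the Sox17 arm Itgb5 had 4.95, 15.0 and 14.4 CPM in deficient libraries, against 8.62, 57.3 and 8.85 CPM in controls. The groups overlapped, and 1 control was the highest. The log2 fold change was −1.13 (SE 0.91, 95% interval −3.05 to 0.79), and without Sox17 control 2 it was 0.38. The difference between the arms was 4.58 (SE 1.49), with an unadjusted p of 0.00732, where 2.87% of all genes were below 0.05, and an adjusted p of 1.00 in edgeR. With no filter on low counts its adjusted p was 0.0411, the single member call under any setting, and over all settings the value ran between 2.25 and 5.92.

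Itgb1, the common beta subunit (chromosome 8, 128685654 to 128733200, plus strand), had the smallest spread of the 10 members relative to its mean, a coefficient of variation of 30.1% over the 10 libraries. It had 725, 528 and 1186 CPM in Sox17-deficient libraries, against 587, 462 and 611 CPM in Sox17 controls. The deficient library was higher in each set, while the groups overlapped. The log2 fold change was 0.55 (SE 0.39, 95% interval −0.27 to 1.38), and 0.18 without Sox17-deficient 3. In the Sox7 arm it had 586 and 772 CPM in deficient libraries, against 827 and 604 CPM in controls, and the sets went opposite ways. There the log2 fold change was −0.08 (SE 0.48, 95% interval −1.08 to 0.93).

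Itga6, the most abundant alpha subunit (chromosome 2, 71745616 to 71858416, plus strand), had 1207, 1333 and 1687 CPM in Sox17-deficient libraries, against 4202, 1373 and 1447 CPM in Sox17 controls. All but 1 of these 6 libraries lay close together, and the exception was the shallow Sox17 control 1. The log2 fold change was −0.73 (SE 0.45, 95% interval −1.68 to 0.22), and −0.01 without that library. For Sox7, Itga6 had 1038 and 1001 CPM in deficient libraries, against 1651 and 993 CPM in controls. Only Sox7 control 1 stood above the others, and the log2 fold change was −0.37 (SE 0.55).

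Itga3, whose product with beta1 also binds laminins (chromosome 11, 95044474 to 95076801, minus strand), had 79.2, 29.3 and 40.1 CPM in Sox17-deficient libraries, against 16.3, 6.47 and 45.5 CPM in Sox17 controls. It was higher in the deficient library of sets 1 and 2 and lower in that of set 3. In Sox7-deficient libraries it had 18.7 and 1.46 CPM, against 15.9 and 32.9 CPM in Sox7 controls. The log2 fold change was 1.11 (SE 0.84) for Sox17 and −1.27 (SE 1.04) for Sox7, and the Sox7 value ran between −4.08 (without Sox7-deficient 1) and −0.38 (without Sox7-deficient 2). The difference between the arms was −2.39 (SE 1.34), with an unadjusted p of 0.0923 and an adjusted p of 1.00 in edgeR.

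Itga1, a collagen receptor subunit (chromosome 13, 114953096 to 115101964, minus strand), had 42.2, 25.4 and 65.8 CPM in Sox17-deficient libraries, against 38.1, 44.8 and 52.6 CPM in Sox17 controls. Its Sox7 values were 32.6 and 69.8 CPM in deficient libraries, against 73.2 and 29.5 CPM in controls. The groups overlapped in both arms and the sets disagreed, with log2 fold changes of −0.03 (SE 0.53) for Sox17 and −0.00 (SE 0.65) for Sox7. Pelo, Gm49395 and Gm10734 overlap the annotated gene, and the strand setting of the counting is not known, so their reads could not be separated. The same limit holds for Itga6 (Gm13662, Gm13663, Gm17250 and Gm13739), Itgav (Gm13684 and Dnmt3l-ps1) and Itga5 (Mir6963). In Itga1, as in these genes, no overlap falls within the last kilobase of the gene.

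Itga2, the other collagen receptor subunit (chromosome 13, 114833081 to 114932100, minus strand), was at 0 counts in both Sox7-deficient libraries, against 25 counts in Sox7 control 1 and 1 count in Sox7 control 2. Taken over the group, 0 counts against the floor of 3 put it at least 6.53-fold lower in these Sox7-deficient libraries, with allowance for counting error only. The 6.53-fold bound rests on Sox7 control 1, since the 1 count of Sox7 control 2 is itself under the floor. With the spread between libraries, the fitted 95% interval was −16.0 to 1.66 on the log2 scale (unadjusted p 0.105 in edgeR) and includes no change. The groups did not overlap in that direction, as for 12.9% of all genes, by 0 counts against 1 in set 2. In the Sox17 arm it had 0, 4.23 and 1.98 CPM in deficient libraries, against 0, 2.05 and 2.10 CPM in controls.

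Itgav, the alpha subunit that Itgb3 and Itgb5 products pair with (chromosome 2, 83724397 to 83806916, plus strand), had 17.7, 2.43 and 3.22 CPM in Sox17-deficient libraries, against 10.4, 6.87 and 15.4 CPM in Sox17 controls. In the Sox7 arm it had 17.4 and 5.84 CPM in deficient libraries, against 14.6 and 0 CPM in controls. Both sets were higher in the deficient library there, while the groups overlapped. The log2 fold changes were −0.49 (SE 1.57) for Sox17 and 0.67 (SE 1.92) for Sox7.

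Itga9 (chromosome 9, 118606690 to 118901003, plus strand) had 14.6, 0 and 8.56 CPM in Sox17-deficient libraries, against 0.907, 1.42 and 1.86 CPM in Sox17 controls. Sox7 values were 37.2 and 1.59 CPM in deficient libraries, against 4.91 and 1.66 CPM in controls. The fitted log2 values were 2.43 (SE 1.91) for Sox17 and 2.56 (SE 2.34) for Sox7, and the Sox7 value was −1.07 without Sox7-deficient 1. The antisense gene Gm2415 overlaps the 3′ end of Itga9, where the tags fall, and its reads could not be separated.

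Itga5, the fibronectin receptor subunit (chromosome 15, 103344286 to 103366763, minus strand), had 19.0, 2.74 and 0.124 CPM in Sox17-deficient libraries, against 0, 0.395 and 10.02 CPM in Sox17 controls. In the Sox7 arm it had 2.30 and 0.531 CPM in deficient libraries, against 5.03 and 0 CPM in controls. Each group mixed high and low libraries, with log2 fold changes of 1.04 (SE 2.35) for Sox17 and −0.82 (SE 2.88) for Sox7.

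**Figure D3:**
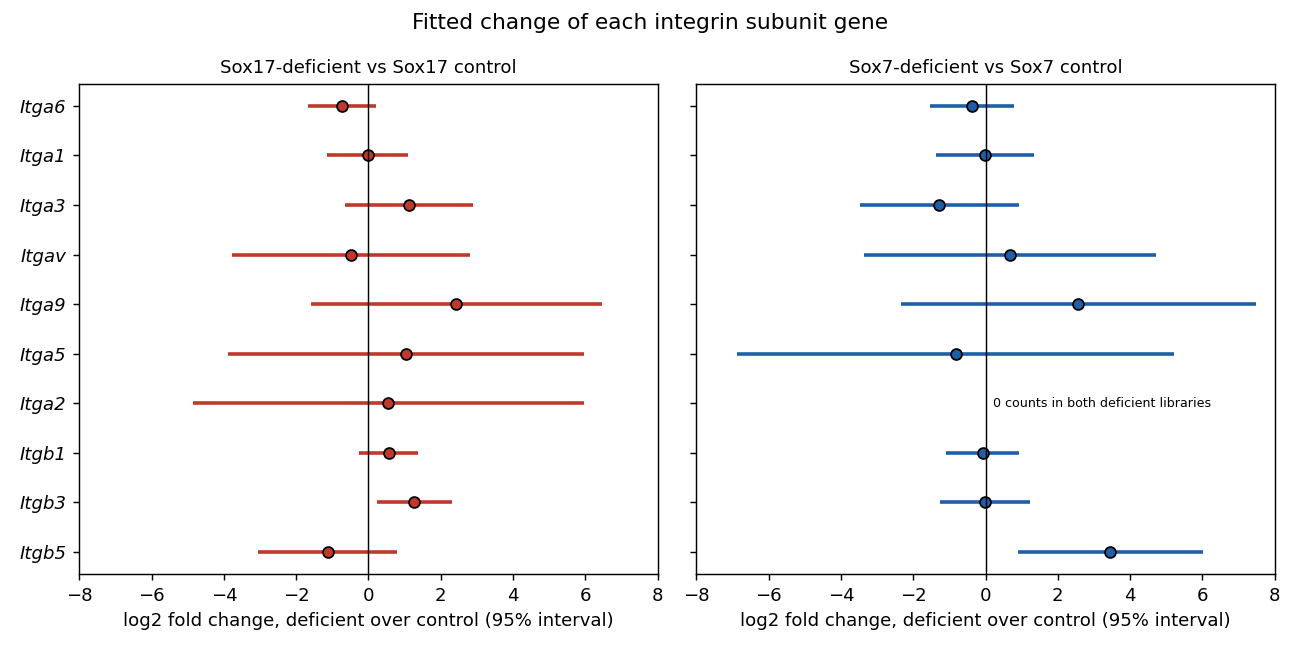
Fitted log2 fold change, deficient over control, of each integrin subunit gene with its 95% interval, for Sox17 (left) and Sox7 (right). The interval of Itgb3 for Sox17 (0.24 to 2.30) and that of Itgb5 for Sox7 (0.90 to 6.01) lie above 0 before adjustment. Itga2 has no Sox7 point because both deficient libraries were at 0.

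**Figure D4:**
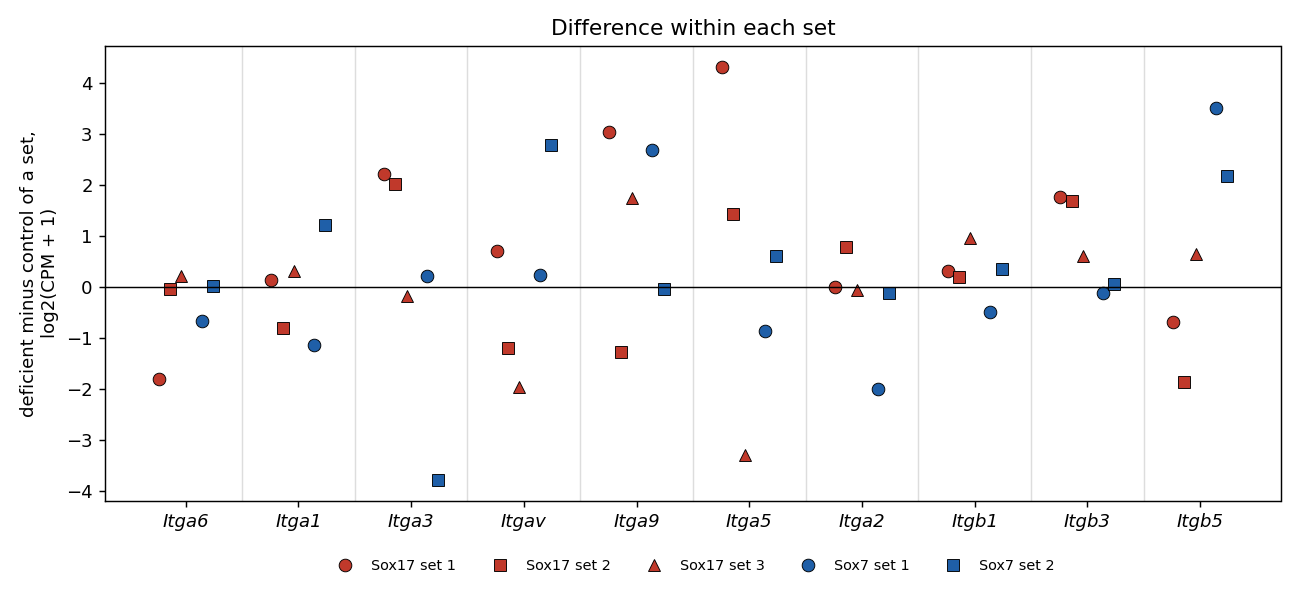
Difference between the deficient and the control library of a set, on the log2(CPM + 1) scale, for each integrin subunit gene in the 3 Sox17 sets and the 2 Sox7 sets. Itgb3 is above 0 in all 3 Sox17 sets (1.75, 1.68 and 0.60) and near 0 in the Sox7 sets (−0.12 and 0.05), and Itgb5 reaches 3.51 and 2.17 in the Sox7 sets.

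With the mean of each arm removed, Pearson correlations of log2(CPM + 1) over the 10 libraries were read for all pairs of members. The largest in either direction were 0.68 between Itga1 and Itgb1, 0.60 between Itga5 and Itgav, and −0.69 between Itga6 and Itgb3. Differences between deficient and control libraries remain in these values. By the same measure the genes most like Itga6 were Tmem109 (0.97), Pcdhga6 (0.96) and Gm3383 (0.96). Those most like Itgb1 were Map4k4 (0.94), Snord55 (0.91) and Nufip2 (0.91). The points share depth, and Sox17 control 1 was both shallowest and highest in Itga6.

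Genes that work with integrins were read in 4 lists, and none of them had a member past an adjusted p of 0.05 in either comparison (edgeR). Of 17 other integrin subunits, 10 were tested, none at an unadjusted p below 0.05, with a median log2 fold change of 0.82 for Sox17 and 1.47 for Sox7. The Sox17 median ran between 0.36 (without Sox17-deficient 3) and 1.55 (without Sox17 control 3). The Sox7 median was 0.39 without Sox7-deficient 1, 5.98 without Sox7 control 1, 2.34 without Sox7-deficient 2 and 0.80 without Rn45s, with between 9 and 13 genes tested. Itga4, the alpha subunit of a fibronectin and VCAM-1 receptor, had 33.3, 50.01 and 71.8 CPM in Sox17-deficient libraries, against 6.80, 18.9 and 58.9 CPM in Sox17 controls. Its level exceeded that of Itga5 in every library, and its log2 fold change was 0.86 (SE 0.68), or 0.40 without Sox17 control 1. In the Sox7 list Itgam and Itgb2, given above, had fitted log2 values of 3.78 (SE 2.37) and 4.16 (SE 2.79). Without Sox7-deficient 1 these were 1.07 and 0.95, and without Sox7 control 1 they were 13.2 and 9.07.

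Of 41 activators and adaptors of the cytoplasmic tail, 40 were tested, and 1 stood at an unadjusted p below 0.05 in each comparison, where 3.52% of all genes did for Sox17 and 1.5% for Sox7. For Sox17 this gene was Apbb1ip (unadjusted p 0.0194 in edgeR). It was at 0 CPM in Sox17-deficient libraries, against 0.326 ± 0.379 CPM in Sox17 controls, a level near the floor. For Sox7 it was Ptk2. Their median log2 fold change was 0.03 for Sox17 and −0.25 for Sox7, with 14 above and 26 below 0 for Sox7, where 47.5% of all genes were below 0. The Sox7 median was −0.04 without Sox7 control 2 (all genes 0.04) and −0.46 without Sox7-deficient 2 (all genes 0.01). Without Sox7-deficient 1 it was −0.26, the same as the −0.26 of all genes. Ptk2, the focal adhesion kinase, had 34.1 and 25.2 CPM in Sox7-deficient libraries, against 63.2 and 116 CPM in Sox7 controls. Both deficient libraries were lower than both controls, as for 12.9% of all genes. The log2 fold change was −1.60 (SE 0.60), with an unadjusted p of 0.0155 and an adjusted p of 1 in edgeR. It was −1.40 without Sox7-deficient 2 and −1.09 without Sox7 control 2, with unadjusted p of 0.0817 and 0.151. Vcl (vinculin, which links talin to actin) had −1.10 (SE 0.64), and between −1.88 (without Sox7-deficient 2) and −0.43 (without Sox7 control 2). Kank3 had −1.03 (SE 0.54), and between −1.46 (without Sox7 control 1) and −0.46 (without Sox7 control 2). For Sox17, Crk, an adaptor of focal adhesion signalling, had 52.0, 59.2 and 42.3 CPM in Sox17-deficient libraries, against 77.6, 77.8 and 93.9 CPM in Sox17 controls. Its groups did not overlap, as for 4.21% of all genes in that direction. The log2 fold change of Crk was −0.70 (SE 0.43), with an unadjusted p of 0.118 in edgeR. Rsu1, a partner of the kinase-like adaptor complex around Ilk, had 0.79 (SE 0.54, unadjusted p 0.158 in edgeR). Its set differences were 2.57, −0.19 and 0.02 in Sox17 sets 1 to 3, and the value was 0.24 without Sox17-deficient 1.

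All 26 membrane partners were tested, with a median log2 fold change of 0.09 for Sox17 and 0.01 for Sox7. The VEGF co-receptor Nrp1 and the Ig-family protein Bsg had values of −0.62 (SE 0.40) and −0.61 (SE 0.40) for Sox17, and Nrp1 had −0.26 without Sox17 control 1. Sdc4, a heparan sulfate proteoglycan of focal adhesions, had 516 and 16.7 CPM in Sox7-deficient libraries, against 54.2 and 11.9 CPM in Sox7 controls. Only Sox7-deficient 1 was high, and the log2 fold change of 3.01 (SE 1.35) was −1.02 without it. Lrp1, an endocytic receptor, had 2.09 (SE 0.79), and 0.35 without that library.

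Of 47 matrix ligands, 41 were tested, and their medians lay at 0.35 for Sox17 and −0.30 for Sox7. For Sox17, 28 of 41 were above 0 and 3 stood at an unadjusted p below 0.05, where 47.1% of all genes were below 0 and 3.52% stood at that level. For Sox7, 16 were above 0 and 1 stood at that level, against 47.5% of all genes below 0 and 1.5% at that level. With 1 library of its arm left out, the list's median ran between 0.26 and 0.55 for Sox17 and between −0.48 and −0.15 for Sox7. The Sox7 value was −0.48 without Sox7-deficient 1 (all genes −0.26) and −0.48 without Sox7-deficient 2 (all genes 0.01). Emilin1, an elastic fibre protein and known ligand of alpha9beta1, had 60.5, 31.5 and 41.7 CPM in Sox17-deficient libraries, against 2.72, 7.50 and 16.6 CPM in Sox17 controls. Its groups did not overlap, as for 4.13% of all genes in that direction, with a log2 fold change of 2.29 (SE 0.85), an unadjusted p of 0.0145 and an adjusted p of 1 in edgeR. Without Sox17-deficient 1 the value was 2.00 (unadjusted p 0.0725). Col18a1, the basement membrane collagen that holds endostatin, had 181, 86.3 and 252 CPM in Sox17-deficient libraries, against 50.3, 57.9 and 137 CPM in Sox17 controls. These groups overlapped, and the log2 fold change was 1.08 (SE 0.50, unadjusted p 0.0439 in edgeR), or 0.70 without Sox17-deficient 3. With Emilin1 and Col18a1, Fbln5 also stood at an unadjusted p below 0.05 for Sox17 (0.0356 in edgeR). It was at 0 CPM in Sox17-deficient libraries, against 1.75 ± 3.04 CPM in Sox17 controls. Its difference was 0 in Sox17 sets 1 and 2 and −2.65 in set 3.

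Ligands in the Sox7 arm were read the same way. Col4a1, the main collagen of vascular basement membrane, had 606 and 836 CPM in Sox7-deficient libraries, against 1252 and 1374 CPM in Sox7 controls. The groups did not overlap, as for 12.9% of all genes in that direction, with a log2 fold change of −0.86 (SE 0.45). Vegfc, a growth factor of lymphatic vessels that also binds alpha9beta1, had 3.03 and 0 CPM in Sox7-deficient libraries, against 18.5 and 6.63 CPM in Sox7 controls, a log2 fold change of −3.05 (SE 1.53), or −2.05 without Sox7-deficient 2. Tgfbi, a secreted matrix protein, had 364 and 50.8 CPM in Sox7-deficient libraries, against 33.6 and 43.1 CPM in Sox7 controls, and its log2 fold change of 2.44 (SE 0.88) was 0.38 without Sox7-deficient 1.

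**Figure D5:**
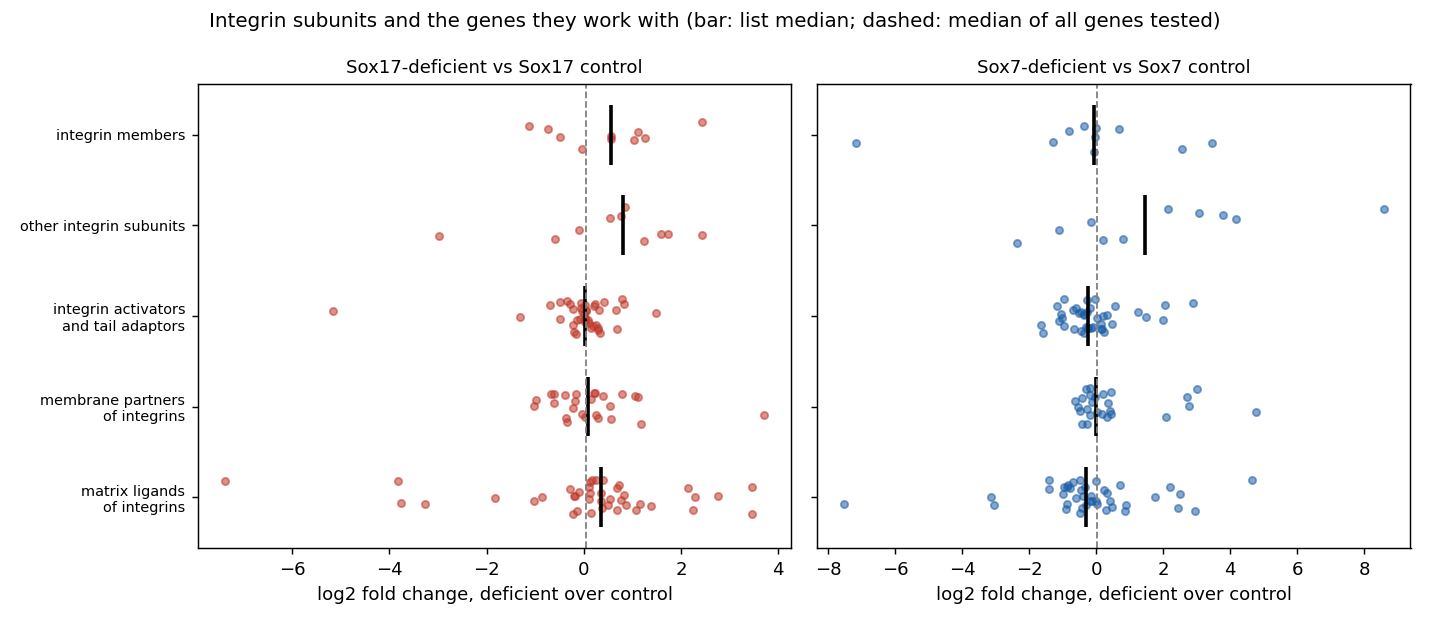
Log2 fold change, deficient over control, of each tested gene in the integrin subunit list and in 4 lists of genes that work with integrins, for Sox17 (left) and Sox7 (right). Each dot is a gene, the bar is the list's median and the dashed line the median of all genes tested, at 0.05 and 0.04. Matrix ligands sit at a median of 0.35 for Sox17 and −0.30 for Sox7. Fitted values of genes with a group at 0 are included, and the medians of the lists stay the same with such genes at their bound.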

How the data were processed

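The authors deposited raw counts, as whole numbers for each gene symbol, in 1 file per library. Per the submitters' processing notes, Bowtie2, edgeR and build mm10 were used, with no role given; the annotation, counting tool and strand setting are not given in the sources used here. No molecular identifiers are mentioned. Left out were 1183 symbols that the Sox7 files lack, all of which begin with Mir, repeated symbols were summed, and no row lacked a gene name.

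Counts were tested with edgeR 4.0.16 in R 4.3.3 (TMM scaling, filterByExpr, robust quasi-likelihood F-test, 1 mean per group over all 10 libraries, 6 residual degrees of freedom). The filter removed 10198 genes and left 13040, and p-values were adjusted over these by Benjamini and Hochberg with a threshold of 0.05. SE was derived from F and the log2 fold change. The common biological coefficient of variation was 0.989. CPM (counts-per-million) uses TMM-scaled totals. Intervals use the t quantile on edgeR's degrees of freedom. Alternatives were DESeq2 1.42.0, limma-voom (limma 3.58.1), other size factors, no filter, a replicate block, 1 arm at a time, no Rn45s (3.93 to 28.8% of counts) and leaving out each library.

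The design text speaks of independent sets of deficient and control samples, and a code shared in the sample descriptions ties 4 of the 5 sets (Sox17 set 1 has none). Same-numbered libraries were therefore read as sets, while the test itself is unpaired and the replicate block was an alternative. Deviations of same-numbered libraries from their group means correlated at 0.12, 0.0911 and 0.0896 in Sox17 sets 1 to 3 and at 0.193 in the Sox7 arm. The labels do not say that libraries came from separate animals, and the p-values reflect variation among these samples that may be only technical.

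The members and gene lists were chosen with earlier results of these data known. All 10 members are named. Beside them come genes taken, in each list, from the 3 with the smallest unadjusted p in each comparison, or direct partners and ligands of a member. Of those with the smallest p, Itgal, Itgb4, Itgb7, Thy1, Cd63, Spp1 and F11r are not described. Also named are the 3 genes most correlated with the highest alpha and beta member, and the leukocyte subunit Itgax. Positions are from GENCODE vM21 on GRCm38, and promoters from RefSeq.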

Additional observations from a re-analysis of the deposited data

Results flagged for a closer look

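The 10 members and the genes with the smallest p in each integrin list and comparison, the difference between arms included, make 37 genes. Of these, 2 had every Sox17 set higher in the deficient library and every Sox7 set lower, a pattern that 3.08% of all genes tested showed. The reverse pattern, also looked for, was held by 2.19% of all genes and by none of the 37. Some genes entered by a small p for the difference between arms, which favours opposite arms, so the count cannot be read as an excess. The 2 genes, Vwf and Col4a1, encode matrix proteins that integrins bind. For Vwf, the von Willebrand factor, deficient minus control was 0.93, 0.61 and 0.47 in Sox17 sets 1 to 3 and −0.97 and −0.97 in Sox7 sets 1 and 2, on the log2(CPM + 1) scale. Its Sox7 difference minus its Sox17 difference was −1.66 (SE 0.72), with an unadjusted p of 0.0319 and an adjusted p of 1.00 in edgeR, and it ran between −2.46 and −0.87 with each library left out in turn. For Col4a1, the basement membrane collagen chain, it was 0.22, 0.55 and 0.33 in the Sox17 sets and −1.05 and −0.72 in the Sox7 sets. Its Sox7 difference minus its Sox17 difference was −1.23 (SE 0.57), with an unadjusted p of 0.0461 and an adjusted p of 1.00 in edgeR, and it ran between −1.48 and −1.03 with each library left out. Neither gene passed the adjusted threshold for the difference between the arms. Among the same 37 genes, Sdc4 and Tgfbi were higher in the deficient library of all 5 sets, as 3.32% of all genes were. For Sdc4 the differences were 2.09, 0.48 and 1.06 in the Sox17 sets and 3.23 and 0.46 in the Sox7 sets. For Tgfbi they were 0.65, 0.44 and 0.29, then 3.40 and 0.23. Crk was lower in all 5, as 3.34% of all genes were.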

How the results depend on the processing

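No member was called for Sox17 or for Sox7 under any of the 17 alternatives, and for the difference between the arms 1 member (Itgb5, with no filter) was. Of the 30 member values, 14 kept their sign throughout, among them Itga3, Itga6, Itgav, Itgb1 and Itgb3 for Sox17 and Itga2, Itga3 and Itgb5 for Sox7. Over all genes, the 0 calls became, for Sox17, Sox7 and the difference between the arms, 29, 3 and 15 with DESeq2 and 30, 58 and 58 with no filter. With the replicate block they became 6, 1 and 3, and the block changed no call of a member. Leaving out each library gave 0 to 1, 0 to 14 and 0 to 9, the highest Sox7 and arm counts being those without Sox7-deficient 1. With no filter the adjusted p was 0.0482 for Tgfbi and 0.00206 for Sdc4 in the Sox7 comparison. The cause of these shifts was not tested.

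Values changed sign with limma-voom for Itga2 (−0.067) and Itga9 (−1.59) in Sox17, Itga1 (0.10) and Itga5 (1.33) in Sox7 and Itga5 (0.28) in the difference between arms. Sox7 Itga1 was 0.0262 with DESeq2 and 0.0262 with other size factors, and with the replicate block it was 0.0388 and Itga5 1.29. With each library left out, Sox17 values ran from −0.42 to 0.26 for Itga1 (sign changed without deficient 1, deficient 2 or control 3), −0.51 to 1.12 for Itga2 (without deficient 2 or control 1), −1.29 to 4.90 for Itga5 (without deficient 1) and −1.54 to 0.38 for Itgb5 (without control 2). Sox7 values ran from −2.25 to 7.04 for Itga5 and −0.70 to 0.014 for Itga6 (both changing sign without control 1), −1.07 to 3.51 for Itga9 and −1.02 to 4.46 for Sdc4 (both without deficient 1), −0.66 to 0.77 for Itga1 and −0.29 to 0.15 for Itgb1 (both without deficient 1 or control 1), and −0.36 to 10.07 for Itgav and −0.29 to 0.18 for Itgb3 (both without deficient 1 or control 2). Differences between arms ran from −0.63 to 0.82 for Itga1 (Sox17-deficient 1 and 2, Sox17 control 3, Sox7-deficient 2, Sox7 control 2), −5.72 to 6.04 for Itga5 (Sox17-deficient 1, Sox7 control 1), −0.38 to 0.76 for Itga6 (Sox17 control 1) and −3.47 to 1.11 for Itga9 (Sox17-deficient 2, Sox17 control 3, Sox7-deficient 1, Sox7 control 2). Leaving out a Sox7 library leaves its group with 1 sample, assumed to vary like the other groups. Counts limit Itga2, Itga5, Itga9 and Itgav, which were at or under the floor of 3 counts in 1 to 5 libraries. Itga2 gave no value for Sox7 with that arm alone.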
